A study of Mus musculus with 12 samples.

Results

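The genes described are Fmo2, Ucp2, Slc25a33, Hr and Adam33, 5 of the 28004 genes in a table of bulk RNA sequencing from mouse lung. They were picked from measured values, as genes raised at postnatal day P10, and all 5 passed the filter on low counts that left 16827 genes for testing. Each of the 12 libraries came from whole lung that was dissociated and sorted for cells positive for 2 reporters, Acta2-dsRed and Pdgfra-GFP, which all groups share. Marker RNA of other cell types was also present in the sorted libraries, as given below. The stages were E17.5 before birth and P3, P7 and P10 after it, with 3 libraries each. The labels do not say how many animals gave a library, whether animals were pooled or whether replicates are separate animals. The p-values therefore measure the spread between these libraries, which may be technical. The study asked how these mesenchymal cells change while alveoli form.

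The 5 genes have separate functions. Fmo2 encodes a flavin-containing monooxygenase, an NADPH-dependent enzyme that oxidises nitrogen and sulphur compounds and is the main member of its family in the lung of many mammals. Ucp2 and Slc25a33 encode carriers of the inner mitochondrial membrane: uncoupling protein 2 lowers the membrane potential and limits superoxide production, and the Slc25a33 protein moves pyrimidine nucleotides into the matrix. Hr encodes hairless, a nuclear protein that binds thyroid hormone, vitamin D and ROR receptors as a corepressor and is best known for its role in the hair follicle. Adam33 encodes a membrane-anchored metalloprotease of mesenchymal cells, and variants of the human gene have been linked to asthma.

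The genes lie on 5 chromosomes of the mouse build GRCm38, and each is annotated as protein coding in GENCODE release M21. Fmo2 (ENSMUSG00000040170.13) spans chr1:162874317-162898726 on the minus strand, Ucp2 (ENSMUSG00000033685.13) chr7:100493337-100502020 on the plus strand and Slc25a33 (ENSMUSG00000028982.9) chr4:149744036-149774277 on the minus strand. Hr (ENSMUSG00000022096.14) spans chr14:70552212-70573548 on the plus strand and Adam33 (ENSMUSG00000027318.17) chr2:131050591-131063814 on the minus strand. Their longest annotated transcripts have between 7 exons (Slc25a33) and 19 exons (Hr). A pair of them overlap a gene on the opposite strand, Ucp2 with Dnajb13 over 305 bases and Slc25a33 with Gm13068 over 1090 bases. Whether the authors' counting used strand is not stated, so reads in those stretches cannot be told apart.

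Promoters are shown for Fmo2, Slc25a33 and Ucp2 because these are the members that the RefSeq promoter table held, and they let their start regions be compared. The sequences are RefSeq's for GRCm38.p6, with 250 bases before the transcription start and 50 after it, read on the strand of the gene. Capitals mark any match, on either strand, to 1 of 6 motifs. These are AGGTCA, the core site of nuclear receptors, the TATA box TATAAA, the NF-Y motif CCAAT, the Sp1 motif GGGCGG, the E-box motif CACGTG and the TEAD factor motif GGAATG. No matches overlap in the sequences shown.
Fmo2, chr1:162898709-162899008, minus strand: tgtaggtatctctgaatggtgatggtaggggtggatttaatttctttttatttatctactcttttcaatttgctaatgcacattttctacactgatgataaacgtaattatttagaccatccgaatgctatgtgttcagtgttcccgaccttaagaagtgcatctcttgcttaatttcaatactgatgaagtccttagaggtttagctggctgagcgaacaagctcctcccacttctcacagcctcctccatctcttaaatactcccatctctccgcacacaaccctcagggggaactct
Slc25a33, chr4:149774218-149774517, minus strand: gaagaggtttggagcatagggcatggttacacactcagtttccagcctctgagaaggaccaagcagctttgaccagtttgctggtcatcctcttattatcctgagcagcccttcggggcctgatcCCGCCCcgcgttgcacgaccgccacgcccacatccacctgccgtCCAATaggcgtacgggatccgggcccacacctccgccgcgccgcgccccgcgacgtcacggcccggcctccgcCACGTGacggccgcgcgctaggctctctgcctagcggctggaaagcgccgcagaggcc
Ucp2, chr7:100493108-100493407, plus strand: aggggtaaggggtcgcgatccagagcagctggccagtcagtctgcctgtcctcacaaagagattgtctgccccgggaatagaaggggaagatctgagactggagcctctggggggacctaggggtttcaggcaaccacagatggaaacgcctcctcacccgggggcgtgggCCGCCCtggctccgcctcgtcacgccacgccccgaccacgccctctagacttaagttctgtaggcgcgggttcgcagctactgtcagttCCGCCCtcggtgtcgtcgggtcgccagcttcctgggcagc

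The carrier genes have GC-rich start regions, with 66% GC for Slc25a33 and 64.3% for Ucp2, and Fmo2 does not, with 41.3%. The median over all 32851 promoters of the table was 52.7%. GGGCGG was matched once for Slc25a33 and at 2 places for Ucp2, and 35.7% of all promoters of this length hold it. The Slc25a33 window also holds CACGTG, 8 bases before the start, and CCAAT, present in 7.15% and 37.4% of all promoters. The Fmo2 window shown holds none of the 6 motifs. The table's second Fmo2 promoter, at chr1:162898444-162898743, holds 1 AGGTCA match, as do 16.3% of all promoters. None of the windows holds the TATA box or the TEAD motif, which stand in 13.6% and 14.7% of all promoters. The table matched 3 of the 5 genes; Hr and Adam33 are named only.

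Library totals ran from 13328623 to 18740591 estimated counts, with 20234 to 21235 genes above 0. The small structural RNAs 7SL and 7SK made up 20% of the total in P10 replicate 3 and up to 46.3% in E17.5 replicate 2, and the TMM factors of these libraries were the extremes, 1.48 and 0.589. The depth left for other genes was lower by that share. Values below are depth-normalised counts in CPM, on library sizes scaled with edgeR's TMM method. Genes of mesenchymal and myofibroblast identity were abundant at every stage, with all 12 listed markers above 1 CPM on average. Their sum was at least 6919 CPM in each library. Single genes weighed much in this sum. Eln gave 5172 of 10140 CPM in E17.5 replicate 2 and 570 of 6919 CPM in P3 replicate 2. In bulk libraries, fewer cells of a type and less RNA per cell cannot be told apart. Among the P10 libraries, replicate 1 stood apart in contractile markers of that list and in markers of other cell types. It had 330 CPM of Actg2 (100 and 153 in replicates 2 and 3), 675.5 CPM of Acta2 (364 and 420) and 468 CPM of Myh11 (238 and 271). Pdgfra, Eln, Aspn and Stc1 of the same list were lowest in replicate 1. Its endothelial sum was 45.4 CPM, against 131.7 and 128.8 in P10 replicates 2 and 3. Its airway epithelial sum was 71.5 CPM, against 207 and 254, and its alveolar epithelial sum 57.7 CPM, against 199.6 and 149.8.

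**Figure D1:**
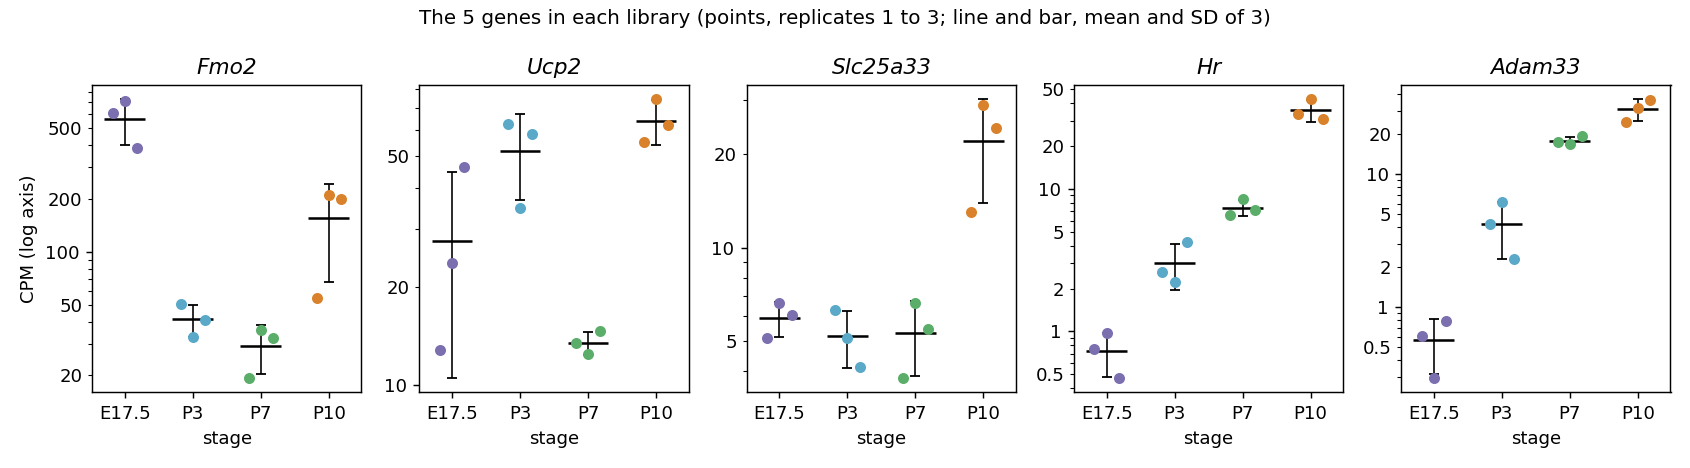
CPM of each gene (log axis) in the 12 libraries by stage, with points for replicates 1 to 3 from left to right, a line for the mean and a bar for the SD of 3 libraries. All P10 points lie above all P7 points for each gene, but Fmo2 is highest at E17.5 and Ucp2 at P3 overlaps P10.

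The 5 genes took 3 kinds of course. Hr and Adam33 stood higher at each later stage, Slc25a33 was level until P7 and higher at P10, and Fmo2 and Ucp2 were higher at P10 after a low at P7. The name late-rising therefore describes Slc25a33 best. For Fmo2 the P10 level lay below the E17.5 level, for Ucp2 it was close to the P3 level, and Adam33 was already above its E17.5 level at P3. All 3 P10 libraries lay above all 3 P7 libraries for 5 of 5 genes, where this held for 15.1% of all tested genes. They lay above all P3 libraries for 4 of 5 (18.6% of tested genes) and above all E17.5 libraries for 4 of 5 (17.3%). Being raised at P10 is what chose the genes, so these counts, and the fold changes against P10 below, are descriptions without a test. The 3 comparisons with P10 share the P10 libraries. Over all tested genes 7.9% rose and 9.4% fell in P10 vs P3, and 8.79% rose and 9.5% fell in P10 vs E17.5.

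Fmo2, the monooxygenase, had 607, 709 and 385 CPM in the E17.5 libraries (replicates 1, 2 and 3) and 50.4, 33.0 and 41.1 CPM at P3. It had 19.2, 36.2 and 32.7 CPM at P7 and 54.4, 209.6 and 199 CPM at P10. The stages were ordered E17.5, P10, P3 and P7, and P3 and P7 overlapped. In P3 vs E17.5, a comparison without P10 libraries, Fmo2 fell to a mean of 41.5 ± 8.71 CPM at P3, against 567 ± 166 CPM at E17.5 (log2 fold change -3.77, SE 0.51, 3 libraries each, adjusted p = 0.000721). It was lower in every P3 library than in any E17.5 library, as were 19.6% of tested genes. In P7 vs P3 it had -0.50 (SE 0.46, adjusted p = 0.659). At P10 the mean was 154 ± 86.7 CPM, against 29.4 ± 8.96 CPM at P7, a ratio of 5.25 (log2 fold change 2.39, SE 0.48). Against E17.5, P10 had a log2 fold change of -1.88 (SE 0.47), so that the P10 mean was 0.272 times the E17.5 mean, and all P10 libraries lay below all E17.5 libraries (16.6% of tested genes).

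The P10 mean of Fmo2 hides a library difference. Replicate 1 had 0.266 times the mean of the other P10 libraries, and its 54.4 CPM was close to the highest P3 library (50.4 CPM). Without P10 replicate 1 the log2 fold change of P10 vs P7 was 2.77, and without P10 replicate 2 it was 2.11. The same library was low in endothelial, airway, alveolar epithelial and erythroid markers, at 0.348, 0.31, 0.33 and 0.529 times the mean of the other P10 libraries. Its immune and mesothelial sums were at 0.688 and 0.234 times that mean. Its pericyte, myofibroblast, adventitial fibroblast and alveolar fibroblast sums were not low to that degree, at 1.142, 1.121, 0.926 and 0.902 times. The part of these cell types in the Fmo2 level was not tested. The erythroid sum was highest at E17.5, as Fmo2 was, with means of 156, 45.9, 31.0 and 43.0 CPM at E17.5, P3, P7 and P10, and 4 of its 5 tested markers fell in P3 vs E17.5. The pericyte sum averaged 417, 206, 263 and 332 CPM at these stages, with 4 of its 10 markers falling in that comparison. The alveolar fibroblast and lipofibroblast sum was also highest on average at E17.5, with means of 1265, 821.5, 335 and 365 CPM. Its E17.5 libraries had 2582, 648.5 and 564 CPM, and 1 of its 10 markers fell in P3 vs E17.5. Endothelial sums averaged 65.4, 68.4, 75.2 and 102 CPM, and alveolar epithelial sums 140.0, 192, 134 and 136 CPM. The airway sum averaged 19.2, 113, 149 and 177 CPM and was lowest at E17.5. Single genes made up much of these sums. In P10 replicate 1, Tppp3 gave 62.6 of the 71.5 CPM of the airway sum, and in replicate 2 it gave 106 of 207 CPM. Ramp2 gave 31.8 of the 45.4 CPM of the endothelial sum in P10 replicate 1, and 54.3 of 131.7 CPM in replicate 2. Krt5, a basal cell marker, was listed at 0 in all E17.5 and P3 libraries. In P10 vs P7 none of the 10 endothelial or 4 tested airway markers passed, with median log2 fold changes of 0.87 and 0.62. The endothelial sums of P10 replicates 2 and 3 (131.7 and 128.8 CPM) lay above those of all P7 libraries (61.2, 89.5 and 74.9 CPM), and that of P10 replicate 1 (45.4 CPM) below them. Of the 10 alveolar epithelial markers 1 fell and none rose in that comparison.

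**Figure D2:**
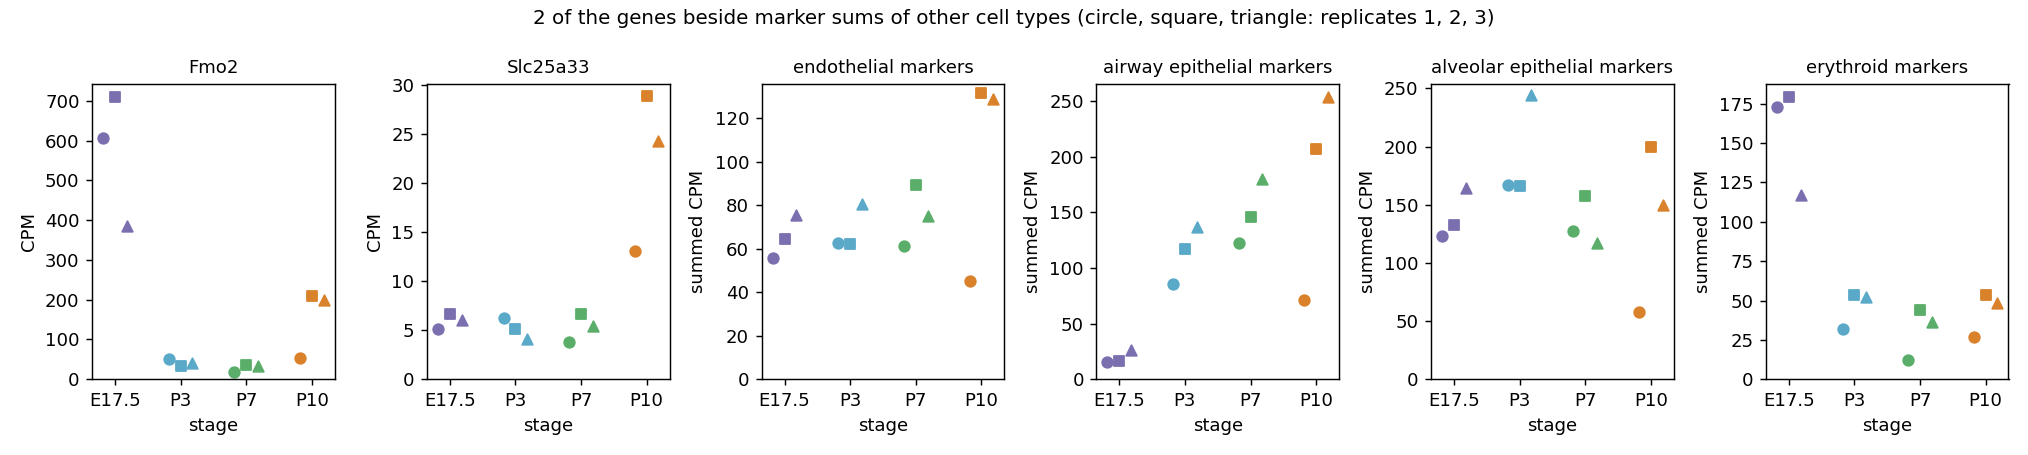
CPM of Fmo2 and Slc25a33 and summed CPM of 4 marker lists (linear axes) in each library by stage, with a circle, square and triangle for replicates 1, 2 and 3. P10 replicate 1 is the lowest P10 library in all 6 panels. Of the lists not shown, its pericyte and myofibroblast sums were the highest at P10, at 1.142 and 1.121 times the mean of the other P10 libraries. Its adventitial fibroblast, alveolar fibroblast, immune and mesothelial sums were the lowest, at 0.926, 0.902, 0.688 and 0.234 times. Fmo2 and the erythroid sum are highest at E17.5, where the airway epithelial sum is lowest.

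Ucp2, uncoupling protein 2, had 12.8, 23.6 and 46.3 CPM at E17.5 and 62.7, 34.8 and 58.4 CPM at P3. It had 13.5, 12.5 and 14.6 CPM at P7 and 55.2, 74.8 and 62.2 CPM at P10. The P3 and P10 libraries overlapped, as did E17.5 with P3 and with P7, and the P7 libraries lay below all those of P3 and P10. The mean at P10 was 64.1 ± 9.95 CPM, against 13.5 ± 1.09 CPM at P7 (log2 fold change 2.24, SE 0.40). Against P3, at 52.0 ± 15.1 CPM, P10 had 0.30 (SE 0.38). In P3 vs E17.5 the log2 fold change of Ucp2 was 0.91 (SE 0.39, adjusted p = 0.117), and without E17.5 replicate 3, the library with 46.3 CPM, it had 1.54 (adjusted p = 0.00646). In P7 vs P3 it had -1.94 (SE 0.40, adjusted p = 0.120), and -1.95 with adjusted p = 0.0268 without E17.5 replicate 1, which enters the fit and not the comparison. Every P7 library was lower than every P3 library, as for 13.2% of tested genes, and the difference did not pass.

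Ucp2 is abundant in macrophages and other leukocytes, so immune markers stand beside it. The summed level of the 12 immune markers was 22.5 ± 4.80 CPM at P10 (17.3 to 26.7 CPM), 21.3 ± 2.82 CPM at P7 and 20.4 ± 2.20 CPM at P3. Most of this sum came from Lyz2 and Cd68. Ptprc, the pan-leukocyte marker CD45, had 0.772, 0.841 and 1.22 CPM at P10, against 0.149, 0.451 and 0.21 CPM at P7. These values came from 13, 13 and 24 estimated counts at P10 and 3, 8 and 4 at P7. The libraries did not overlap, as for 15.1% of tested genes (log2 fold change 1.79, SE 0.60, adjusted p = 0.129). Cd79a was also higher at P10 without overlap, while Lyz2, Cd68 and Csf1r overlapped between P7 and P10. None of the 6 tested immune markers passed in P10 vs P7 (median log2 fold change 0.37). The part of immune cells in the Ucp2 level was not tested. At P10, P7 and P3 the mean of Ucp2 was 64.1, 13.5 and 52.0 CPM. At E17.5 the immune sum was 11.1 ± 0.95 CPM, with Itgax, Marco and S100a8 among the markers listed at 0. Dnajb13, which overlaps Ucp2 on the other strand, had a mean of 0.682 CPM at P10 and 0.0701 CPM at P7.

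Slc25a33, the pyrimidine nucleotide carrier, had 5.10, 6.62 and 6.05 CPM at E17.5 and 6.27, 5.13 and 4.12 CPM at P3. It had 3.79, 6.65 and 5.47 CPM at P7 and 13.1, 28.9 and 24.3 CPM at P10. The libraries of the first 3 stages overlapped each other, and each P10 library lay above all of them. In P3 vs E17.5 the log2 fold change was -0.19 (SE 0.30, adjusted p = 0.691) and in P7 vs P3 it was 0.03 (SE 0.30, adjusted p = 0.981). Its mean was 22.1 ± 8.13 CPM at P10, against 5.30 ± 1.44 CPM at P7 (log2 fold change 2.06, SE 0.30). P10 replicate 1 was again low, at 0.491 times the mean of the other P10 libraries. Without it the log2 fold change of P10 vs P7 was 2.30. Gm13068, the gene on the opposite strand, had 0.712, 3.17 and 2.29 CPM at P10 and 0.498, 0.958 and 0.158 CPM at P7, so its P10 libraries were in the same order.

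Hr, the corepressor, had 0.748, 0.973 and 0.469 CPM at E17.5, from 9 to 11 estimated counts. It had 2.59, 2.22 and 4.26 CPM at P3, 6.58, 8.45 and 7.10 CPM at P7, and 33.6, 42.8 and 30.9 CPM at P10. The libraries of each stage lay above all those of the stage before. Each step taken singly did so for 19.3% (P3), 12.7% (P7) and 15.1% (P10) of tested genes. Hr rose in P3 vs E17.5 (log2 fold change 2.09, SE 0.31, adjusted p = 0.00101), and all 3 P3 libraries were higher, as for 19.3% of tested genes. In P7 vs P3 the log2 fold change was 1.29 (SE 0.26, adjusted p = 0.112), and the P7 libraries lay above all P3 libraries, as they did for 12.7% of tested genes. The mean at P10 was 35.7 ± 6.24 CPM, against 7.38 ± 0.97 CPM at P7, a ratio of 4.84 (log2 fold change 2.28, SE 0.26). Against E17.5, at 0.730 ± 0.252 CPM, P10 had a log2 fold change of 5.65 (SE 0.32). P10 replicate 3 was the lowest of its stage, at 30.9 CPM, so Hr was the 1 gene of the 5 whose lowest P10 library was not replicate 1.

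Adam33, the metalloprotease, had 0.612, 0.292 and 0.782 CPM at E17.5, from 3 to 15 estimated counts. It had 4.23, 6.15 and 2.30 CPM at P3, 17.3, 16.7 and 19.3 CPM at P7, and 24.5, 31.5 and 36.2 CPM at P10. As for Hr, no stage overlapped the stage before, which held upward for 19.3%, 12.7% and 15.1% of tested genes at the P3, P7 and P10 steps taken singly. Adam33 rose in P3 vs E17.5 to 4.23 ± 1.93 CPM at P3, against 0.562 ± 0.249 CPM at E17.5 (log2 fold change 2.82, SE 0.39, adjusted p = 0.000641). In P7 vs P3 it had 2.06 (SE 0.32, adjusted p = 0.0643), again with no overlap, as for 12.7% of tested genes. Without E17.5 replicate 1 this comparison gave 2.06 with adjusted p = 0.0363. The mean at P10 was 30.7 ± 5.93 CPM, against 17.8 ± 1.37 CPM at P7, a ratio of 1.73 (log2 fold change 0.79, SE 0.30). The P10 step of Adam33 was thus smaller than its earlier steps, while for Hr the P3 vs E17.5 and P10 vs P7 steps (2.09 and 2.28) differed by less than either SE.

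**Figure D3:**
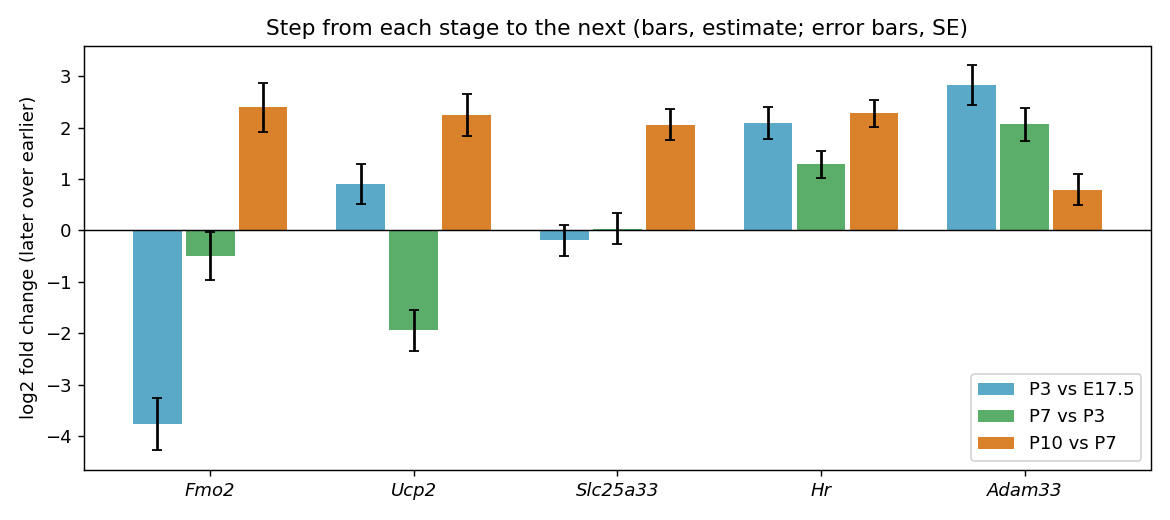
Log2 fold change (later over earlier stage, with SE) of each gene for the steps P3 vs E17.5, P7 vs P3 and P10 vs P7, from 1 edgeR fit over all 12 libraries. Fmo2 and Ucp2 have steps of both signs, Slc25a33 has 1 step away from 0, and Hr and Adam33 have positive steps throughout.

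Before P10, therefore, 2 of the 5 genes rose in P3 vs E17.5 (Hr and Adam33), 1 fell (Fmo2) and 2 did not pass, and each of the 3 calls held in all 20 alternative settings run. Of all tested genes 13.1% rose and 12% fell in that comparison. In P7 vs P3 none of the 5 passed with edgeR's quasi-likelihood test, where 0.00594% of tested genes did. At an unadjusted p under 0.05 there were 3 of them (Ucp2, Hr and Adam33), of 2399 genes in all. DESeq2 called the same 3, where it called 4.64% of the genes it tested, and limma-voom called Adam33, where it called 0.107%. These comparisons hold no P10 library, but the choice of genes as late-rising may have used their low stages.

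Over the 12 libraries, the courses of the genes were not alike. The Pearson correlation of log2(CPM + 0.5) was 0.91 between Hr and Adam33 and 0.74 between Slc25a33 and Hr. It was 0.31 between Fmo2 and Slc25a33, 0.12 between Fmo2 and Ucp2, and -0.56 between Fmo2 and Adam33. These values describe 12 libraries that share 4 stages. Among 8804 tested genes of at least 5 CPM, the nearest to Fmo2 were Adamts1 (r = 0.99), Rtn2 (0.98) and Adamtsl2 (0.97). Adamts1, a secreted metalloprotease, averaged 692, 194, 169 and 421 CPM at E17.5, P3, P7 and P10, the same order of stages as Fmo2. Adamtsl2, a matrix glycoprotein related to it, averaged 136, 6.88, 6.95 and 21.9 CPM.

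The genes nearest to Hr were Col3a1 (r = 0.98), Atp8b1 (0.98) and Adgrl3 (0.97). Col3a1, the type III collagen gene, averaged 1628, 2068, 2682 and 3930.0 CPM at E17.5, P3, P7 and P10, a smaller relative change than that of Hr. Atp8b1, a phospholipid flippase, averaged 0.696, 2.99, 5.33 and 16.0 CPM over the stages. Nearest to Adam33 were Adgrl2 (0.99), Prkcq (0.99) and Tmcc3 (0.98), and Prkcq, the protein kinase C theta gene, averaged 0.492, 2.29, 6.84 and 13.2 CPM. Nearest to Slc25a33 were Cst3 (0.93), RP23-18K20.2 (0.93) and Zbtb20 (0.90). Cst3, the secreted protease inhibitor cystatin C, averaged 172, 197, 208 and 416 CPM and Zbtb20, a zinc finger repressor, averaged 27.1, 25.1, 41.6 and 96.1 CPM. The nearest to Ucp2 were less close, with r of 0.87 for Rbpms, 0.86 for Hiat1 and 0.84 for Ints8. They also moved little: Rbpms, an RNA-binding protein gene, averaged 94.1, 105.6, 94.3 and 105.1 CPM.

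Relatives and partners of the 5 genes were counted in 8 lists, with the 5 left out. Of 152 listed genes 140 were in the table and 111 were tested, and in P10 vs P7 3 rose and 2 fell. That is 4.5%, beside 3.64% of all tested genes (1.4% higher and 2.25% lower), with a median log2 fold change of 0.13, beside 0.01 over all tested genes. The 5 called genes belong to the nuclear receptor, thyroid hormone and ADAM lists. The total of 613 called genes, and these 5 with it, depended on single libraries. Without P10 replicate 2, 22 genes passed, and without P10 replicate 3, 25. Without P7 replicates 1, 2 and 3 there were 55, 41 and 39, and without P3 replicates 1 and 2 there were 291 and 260. Of the listed relatives, 1 passed without P7 replicate 1 or 2 or P10 replicate 2 or 3 and 0 without P7 replicate 3. Without P3 replicates 1 and 2, 2 and 3 of the relatives passed. On library totals without TMM scaling 0 of them passed. Without the filter on low counts Adam12, Hdac3 and Thrb did not pass, and in a fit on the P10 and P7 libraries alone Hdac3 and Thrb did not.

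**Figure D4:**
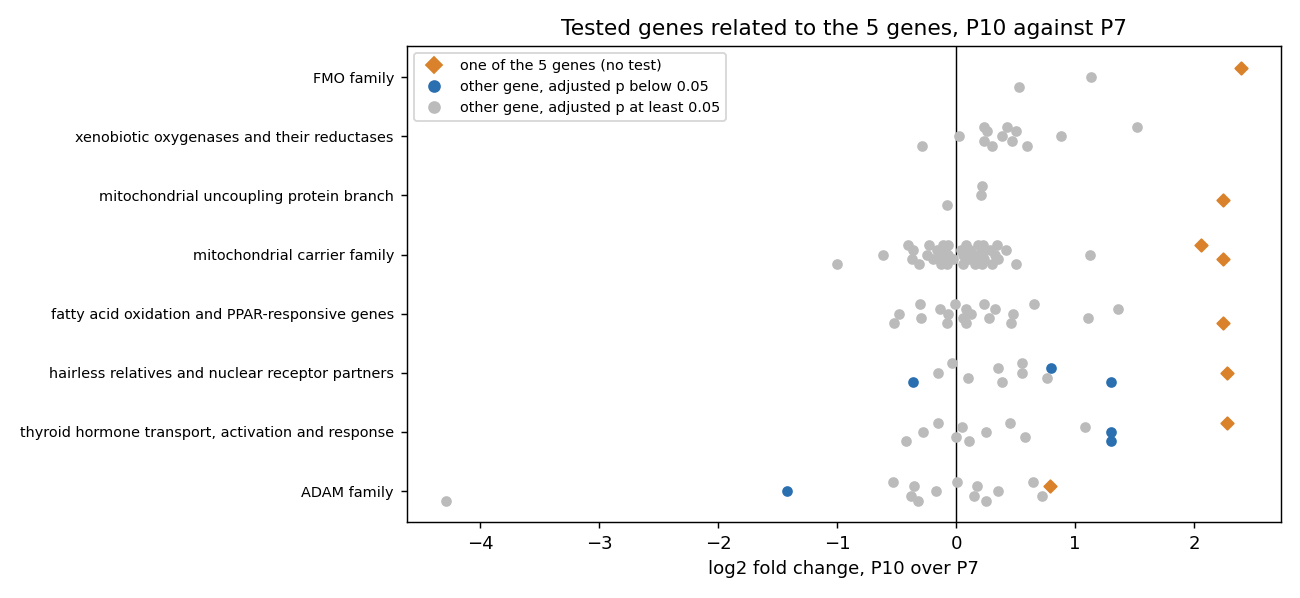
Log2 fold change, P10 over P7, of the tested genes of 8 lists related to the 5 genes, 1 row per list, with diamonds for the 5 genes themselves (no test) and dots for the others, blue where adjusted p was below 0.05. Of the 111 other genes 5 are blue, and the median of the mitochondrial carrier row is 0.06.

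Genes around Hr were among those called. The lists were chosen with earlier results of these data known, so how the calls fall among the lists was not tested. Of 11 tested hairless relatives and nuclear receptor partners 2 rose, 1 fell and 8 did not pass (median log2 fold change 0.39). Over all tested genes 1.4% rose and 2.25% fell. Jmjd1c, a JmjC-domain relative of hairless, had 115, 103 and 100.3 CPM at P10, against 65.2, 59.3 and 58.4 CPM at P7 (log2 fold change 0.80, SE 0.10, adjusted p = 0.00980). Its libraries did not overlap, and the call ended without P7 replicate 2 (adjusted p = 0.0509) or P7 replicate 3 (0.0545). Thrb, thyroid hormone receptor beta, had 2.67, 3.30 and 3.41 CPM at P10, against 0.997, 1.63 and 1.16 CPM at P7 (1.30, SE 0.29, adjusted p = 0.0377). Hdac3, a histone deacetylase of corepressor complexes, fell to 18.2 ± 0.46 CPM at P10, against 23.4 ± 0.46 CPM at P7 (-0.36, SE 0.07, adjusted p = 0.0311). Rora, an orphan nuclear receptor, had 83.4 ± 2.79 CPM at P10 and 49.1 ± 6.18 CPM at P7 and did not pass (0.77, SE 0.20, adjusted p = 0.0644). The call of Thrb ended without any 1 of P3 and P7 replicates 1, 2 and 3 and of P10 replicates 2 and 3 (adjusted p from 0.0512 to 0.140). That of Hdac3 ended without P3 replicate 1, any P7 replicate, or P10 replicate 2 or 3 (0.0519 to 0.129). With replicate number as a block neither passed (adjusted p = 0.0542 for Thrb and 0.0661 for Hdac3).

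Of 12 tested genes of thyroid hormone transport, activation and response 2 rose and none fell (median 0.18), Thrb again and Klf9. Klf9, a zinc finger transcription factor that responds to thyroid hormone and glucocorticoid, had 72.7, 92.7 and 92.5 CPM at P10, against 27.7, 41.9 and 34.9 CPM at P7. Its log2 fold change was 1.30 (SE 0.20, adjusted p = 0.0132), and the call ended without P7 replicates 1 and 3 and P10 replicates 2 and 3 (0.0588, 0.0741, 0.0651 and 0.0706). Thra, the other thyroid hormone receptor gene, had 128 ± 4.95 CPM at P10 and 142 ± 5.28 CPM at P7 (-0.15, SE 0.10, adjusted p = 0.439) and is named here after its values were seen. Ncoa1, a receptor coactivator, had 37.5 ± 0.74 CPM at P10 and 31.5 ± 1.93 CPM at P7 (0.25, SE 0.09, adjusted p = 0.158), and Me1, malic enzyme, had -0.28 (adjusted p = 0.315). The deiodinase genes Dio1, Dio2 and Dio3, which activate or inactivate the hormone, were too low to test. Klf9, Thrb and Jmjd1c had also fallen in P3 vs E17.5, with log2 fold changes of -1.28 (adjusted p = 0.00132), -1.48 (0.00458) and -0.74 (0.000757). In that comparison 12% of all tested genes fell and 13.1% rose. Of the 12 tested thyroid hormone genes 4 fell and 2 rose, and of the 11 tested hairless relatives and receptor partners 2 fell and 2 rose. The course of Klf9, Thrb and Jmjd1c thus resembled that of Fmo2 in direction and not that of Hr, which rose across birth.

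Of the carrier genes other than Ucp2 and Slc25a33, 42 were tested in P10 vs P7 and none passed with edgeR, with a median log2 fold change of 0.06. The lowest adjusted p was that of Slc25a42, the mitochondrial coenzyme A carrier, with 11.1, 31.1 and 29.5 CPM at P10, against 9.17, 12.4 and 11.3 CPM at P7 (1.13, SE 0.36, adjusted p = 0.111). Its P10 replicate 1 overlapped P7, and the other P10 libraries were higher. Slc25a3, the mitochondrial phosphate carrier, had 149 ± 6.69 CPM at P10 and 117 ± 2.45 CPM at P7 (0.35, SE 0.12, adjusted p = 0.149). Slc25a24, a carrier of adenine nucleotides, was lower, with 25.7 ± 1.84 CPM at P10 and 33.9 ± 5.05 CPM at P7 (-0.40, SE 0.14, adjusted p = 0.141). Slc25a36, the second pyrimidine nucleotide carrier, had 27.0 ± 0.89 CPM at P10 and 21.9 ± 1.31 CPM at P7 (0.30, SE 0.11, adjusted p = 0.167). Of the uncoupling branch, Slc25a27, Slc25a14 and Slc25a30 were tested and had 0.21, 0.22 and -0.08 (adjusted p from 0.718 to 0.872), and Ucp1 and Ucp3 were too low to test. None of 20 tested genes of fatty acid oxidation and PPAR response passed (median 0.08). Among these Ppara, a nuclear receptor for fatty acids, had 2.10 ± 0.25 CPM at P10 and 0.968 ± 0.292 CPM at P7 (1.11, SE 0.30, adjusted p = 0.0698). Acadm, an enzyme of fatty acid oxidation, had 61.9 ± 8.79 CPM at P10 and 44.5 ± 3.63 CPM at P7 (0.48, SE 0.25, adjusted p = 0.310), and Cpt2, an enzyme of fatty acid import into mitochondria, had -0.53 (adjusted p = 0.320).

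In the FMO family, Fmo1 and Fmo5 were tested beside Fmo2 and neither passed. Fmo1 had 2.85, 9.96 and 7.32 CPM at P10, against 2.09, 7.04 and 4.84 CPM at P7 (0.53, SE 0.49, adjusted p = 0.590), with the 2 stages overlapping. Fmo5 had 1.01 ± 0.09 CPM at P10 and 0.457 ± 0.105 CPM at P7 (1.14, SE 0.57, adjusted p = 0.295). None of 13 tested xenobiotic oxygenases and reductases passed (median 0.39). Cyp2d22, a cytochrome P450, had 10.1 ± 1.12 CPM at P10 and 5.51 ± 0.59 CPM at P7 (0.88, SE 0.22, adjusted p = 0.0541), and Ephx1, microsomal epoxide hydrolase, had 22.0 ± 2.54 and 14.6 ± 0.87 CPM at the same stages (0.59, SE 0.20, adjusted p = 0.130). Cyp4b1, a further P450 of lung, had 1.84 ± 1.18 CPM at P10 and 0.634 ± 0.182 CPM at P7 (1.52, SE 0.67, adjusted p = 0.233), and Cyb5r3, cytochrome b5 reductase, had -0.28 (adjusted p = 0.268).

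In the ADAM family 14 genes other than Adam33 were tested, and 1 fell and none rose in P10 vs P7 (median -0.08). Adam12, a metalloprotease of fetal and regenerating mesenchyme, had 13.7, 9.96 and 10.2 CPM at P10, against 32.1, 30.5 and 28.0 CPM at P7 (-1.42, SE 0.34, adjusted p = 0.0473). It thus moved the opposite way to the higher Adam33 at P10. That call ended without any 1 of the P3, P7 and P10 libraries (adjusted p from 0.0547 to 0.168). Adam19 had 94.2 ± 8.23 CPM at P10 and 123 ± 9.71 CPM at P7 (-0.38, SE 0.12, adjusted p = 0.121). Adam9 had 36.0 ± 4.80 CPM at P10 and 28.1 ± 2.50 CPM at P7 (0.35, SE 0.16, adjusted p = 0.255). The broadly expressed Adam10 had 39.5 ± 2.68 and 44.3 ± 1.90 CPM at these stages (-0.17, SE 0.09, adjusted p = 0.317).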

How the data were processed

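The authors' deposited table holds scaled estimated counts, all whole numbers. The build was GRCm38, per the submitters' processing notes, and the sources used here do not name the aligner, the quantifier or its annotation. The labels name a stranded total RNA kit and also polyadenylated RNA. A scaled value is not a number of reads, so values of 0 carry no detection limit here. Library depth limits low genes most.

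Genes were filtered with edgeR's filterByExpr by stage. Unless another tool is named, every adjusted p comes from 1 robust quasi-likelihood fit in edgeR 4.0.16 (with limma 3.58.1, under R 4.3.3) over 12 libraries, with TMM scaling and Benjamini-Hochberg adjustment over 16827 genes at 0.05. The SE is the fold change over the root of its F statistic. The code was run on simulated counts with planted changes, drawn with the spread fitted here. That run does not measure how the calls depend on single libraries. Values are means ± SD of 3 libraries. Alternatives tried were other scalings, no filter, limma-voom, DESeq2 1.42.0, replicate number as a block, fits restricted to the 6 libraries of a comparison, and leaving out each library.

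The 5 genes and the lists were chosen with earlier results of these data known. Named genes were the 5, up to 4 relatives per list with the lowest adjusted p in P10 vs P7 and at least 1 CPM at either stage, and the 3 most correlated genes per member (tested, at least 5 CPM, no predicted models). A few genes that the rule or the lists hold are not reported here. Protein sequences were not used here. No P10 comparison of the 5 genes has a test.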

Additional observations from a re-analysis of the deposited data

How the results depend on the processing

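The sign of every fold change of the 5 genes held in all 20 alternatives, except for Slc25a33 in P7 vs P3 (0.03), which was -0.022 with the replicate block and between -0.17 and 0.21 without 1 library. Without TMM, on library totals only, the median of all genes shifted by 0.16, 0.29, 0.34 and 0.50 in P3 vs E17.5, P7 vs P3, P10 vs P3 and P10 vs E17.5. There P10 vs P3 gave 0.67 for Ucp2 and 3.91 for Hr, and P10 vs E17.5 gave 2.44 for Slc25a33, 6.17 for Hr and 6.17 for Adam33. The calls in those comparisons were then 1499 (70.6% higher, against 52.1%), 6 (33.3%, against 0%), 1002 (82.4%, against 45.7%) and 2579 (83.3%, against 48.1%). In P10 vs P7, 7 genes passed, with 0 of the listed relatives, where 613 and 5 passed with TMM. No pairing of libraries by replicate number was seen. Deviations correlated over 0.1 in 4 of 18 same-numbered pairs (highest r 0.166) and in 9 of 36 differently numbered pairs (highest r 0.276). The block gave 310 calls in P10 vs P7 and 0 in P7 vs P3.

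DESeq2 passed 1841 of the 16071 genes it tested in P10 vs P7, with 14 relatives among them. It passed 730 in P7 vs P3, where Ucp2 (-1.96), Hr (1.28) and Adam33 (2.05) passed, as did Ucp2 in P3 vs E17.5 (0.92). With limma-voom 18 genes passed in P7 vs P3, Adam33 (2.14) among them. In P10 vs P7 it passed 854 of 16827 genes, with 10 relatives among them. Leaving out the 7SL and 7SK genes gave 610 calls in P10 vs P7 and moved no call of the 5 genes. Without the filter 307 genes and 2 relatives passed in P10 vs P7 and 3 genes in P7 vs P3. On the 6 libraries compared, 2767, 9 and 1687 genes passed in P3 vs E17.5, P7 vs P3 and P10 vs E17.5 (4225, 1 and 3077 in all 12).

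Without 1 library, calls lay between 22 and 790 in P10 vs P7, 0 and 73 in P7 vs P3, 1307 and 3053 in P10 vs P3, 2016 and 3113 in P10 vs E17.5 and, for relatives in P10 vs P7, 0 and 6. Ucp2 had 0.57 to 1.54 in P3 vs E17.5 and -2.17 to -1.79 in P7 vs P3, Adam33 1.77 to 2.44 in P7 vs P3 and Hr 5.38 to 5.88 in P10 vs E17.5. The filter then kept more genes, and a stage left with 2 libraries is assumed to vary like the others. The causes were not tested. In P7 vs P3, 2399 genes had an unadjusted p under 0.05.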
